A study of Mus musculus with 4 samples.

Results

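Counts are described here for 10 genes of the route that makes polyamines and turns 1 of their products into the hypusine residue of the translation factor eIF5A: Eif5a, Eif5a2, Dhps, Dohh, Odc1, Amd1, Srm, Sms, Azin1 and Sat1. The members were chosen by name, and Eif5a prompted the choice because of its own difference between the genotypes, so its values are given as a description with no test. All 10 were among the 40092 rows of the count table, and all 10 were among the 16661 genes that held enough counts to be tested. The RNA came from alveolar type II (AT2) cells, the surfactant-producing cells of the alveolus, sorted as GFP+ cells from mouse lung 14 days after bleomycin injury. There were 2 libraries from Ctrl mice (Alkbh5flox/+; Sftpc-CreERT2; Rosa26-mTmG) and 2 from A5-CKO mice (Alkbh5flox/flox; Sftpc-CreERT2; Rosa26-mTmG). Both genotypes had bleomycin and tamoxifen, so the Ctrl animals carried the same Cre, the same reporter and 1 floxed allele of Alkbh5, the gene of an RNA m6A demethylase. Sftpc-CreERT2 is a tamoxifen-inducible recombinase driven by the surfactant protein C promoter, so deletion and GFP label concern only cells in which that promoter was active at the time of tamoxifen. The libraries also held RNA of leukocyte and mesenchymal marker genes, in amounts that differed between libraries, as described below. The labels do not give the number of mice behind a library, so the p-values measure the spread between these libraries alone.

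Hypusine is an amino acid found in eIF5A and its paralog. Deoxyhypusine synthase (DHPS) moves a part of spermidine onto a lysine of eIF5A, and deoxyhypusine hydroxylase (DOHH) completes the residue, after which eIF5A helps ribosomes through stretches where peptide bonds form slowly. Spermidine comes from ornithine through ornithine decarboxylase (ODC1), S-adenosylmethionine decarboxylase (AMD1) and spermidine synthase (SRM), while antizymes, which polyamines induce, send ODC1 to the proteasome and antizyme inhibitors hold them off.

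The 250 bases before a RefSeq transcript start of both hypusine enzymes and of the paralog Eif5a2 are shown because Dhps and Dohh had the 2 lowest log2 fold changes of the tested members, while Eif5a2 overlapped between genotypes. They are RefSeq sequences on GRCm38.p6. The outer bounds of the Dhps and Eif5a2 genes begin earlier, at 85071486 and 28781032, so these windows lie wholly (Dhps) or almost wholly (Eif5a2) within the annotated gene, and that of Dohh ends at the base before the gene. In the sequences capitals mark CCGGAA or its reverse complement TTCCGG, the core of ETS-type motifs, searched on both strands with overlaps counted.
Dhps (chr8:85071507-85071756, + strand): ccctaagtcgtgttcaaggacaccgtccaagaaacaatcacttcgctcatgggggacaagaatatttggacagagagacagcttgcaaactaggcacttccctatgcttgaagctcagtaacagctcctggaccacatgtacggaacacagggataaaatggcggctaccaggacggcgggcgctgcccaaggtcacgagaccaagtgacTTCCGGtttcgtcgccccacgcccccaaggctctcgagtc
Dohh (chr10:81384184-81384433, + strand): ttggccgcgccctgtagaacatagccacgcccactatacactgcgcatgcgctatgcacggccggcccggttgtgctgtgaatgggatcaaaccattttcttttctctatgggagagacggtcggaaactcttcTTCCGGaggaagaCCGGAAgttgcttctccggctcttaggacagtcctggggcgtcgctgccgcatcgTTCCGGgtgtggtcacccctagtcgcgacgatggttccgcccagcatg
Eif5a2 (chr3:28781027-28781276, + strand): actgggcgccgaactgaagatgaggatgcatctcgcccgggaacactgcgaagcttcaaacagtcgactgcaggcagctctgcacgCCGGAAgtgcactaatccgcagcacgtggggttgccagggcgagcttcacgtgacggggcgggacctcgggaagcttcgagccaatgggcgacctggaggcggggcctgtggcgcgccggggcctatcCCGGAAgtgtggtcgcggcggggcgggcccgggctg
The window of Dhps held 1 match, that of Dohh 3 and that of Eif5a2 2, so the letters occurred before genes that differed in their values. RefSeq gave windows for 8 of the 10 members, and 6 of these 8 genes had a match in at least 1 window. Counted by window, 7 of 14 (50.0%) held the motif, against 12.0% of 32851 windows of all genes. The E-box CACGTG, the sequence bound by MYC with MAX, occurred in 5 of 14 member windows (35.7%) and 6.0% of all windows. By gene it occurred in 3 of the 8, namely Eif5a, Eif5a2 (2 times in its window) and Sms. The windows of Dhps, Dohh, Odc1, Amd1 and Sat1 did not hold it. Shares by gene over all genes are not given here for either motif. The 6 windows of Eif5a and the 2 of Sms come from alternative starts, some of which overlap, so the windows of 1 gene are not independent. The same CACGTG lies in 2 overlapping windows of Eif5a and is counted in both. The motifs were chosen after earlier results were known, and a match is a stretch of letters, not a measured binding site.

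The libraries held 18144865 to 20811757 counts, and the detection limit, set at 3 counts and covering counting error only, was 0.128 to 0.177 CPM (normalized counts, scaled to library size with TMM factors). The targeted gene Alkbh5 had 81.7 and 152 CPM in the Ctrl libraries and 19.3 and 36.6 CPM in the A5-CKO libraries, with a log2 fold change of -2.06 ± 0.46 (SE). The edgeR quasi-likelihood test gave it an adjusted p of 0.528 (Benjamini-Hochberg), and DESeq2 with its default filtering gave 0.0254. All 10 AT2 markers were tested and abundant, with summed levels of 56700 and 82180 CPM in Ctrl and 42220 and 34900 CPM in A5-CKO. Across all 16661 genes edgeR called none at an adjusted p under 0.05 (0%), and 1530 (9.18%) had an unadjusted p under 0.05. Limma voom called none (0%), and DESeq2 with its default filtering called 57 of 17352 (0.328%), Alkbh5 among them. Both A5-CKO libraries lay above both Ctrl libraries at 20.3% of the genes tested and below them at 23.5%.

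None of the 9 members other than Eif5a passed an adjusted p under 0.05 in edgeR, in limma voom or in DESeq2 with default filtering. Dohh alone had an unadjusted p under 0.05 in edgeR, which is 1 of 9 against the 9.18% of all genes. Odc1 was the member with both A5-CKO libraries above both Ctrl libraries (1 of 9, beside 20.3% of all genes), and Dhps and Dohh had both below (2 of 9, beside 23.5%). With RLE or upper-quartile factors or total counts only, Dhps overlapped and Dohh alone of the 9 had both below. The median log2 fold change of these 9 genes was 0.11, and that of all genes tested was -0.02. With Eif5a included the median of the members was -0.09. These medians depended on the scaling. With total counts as the only scaling, the median of the 9 genes became 0.42, that of the 10 members 0.22 and that of all genes 0.30.

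**Figure D1:**
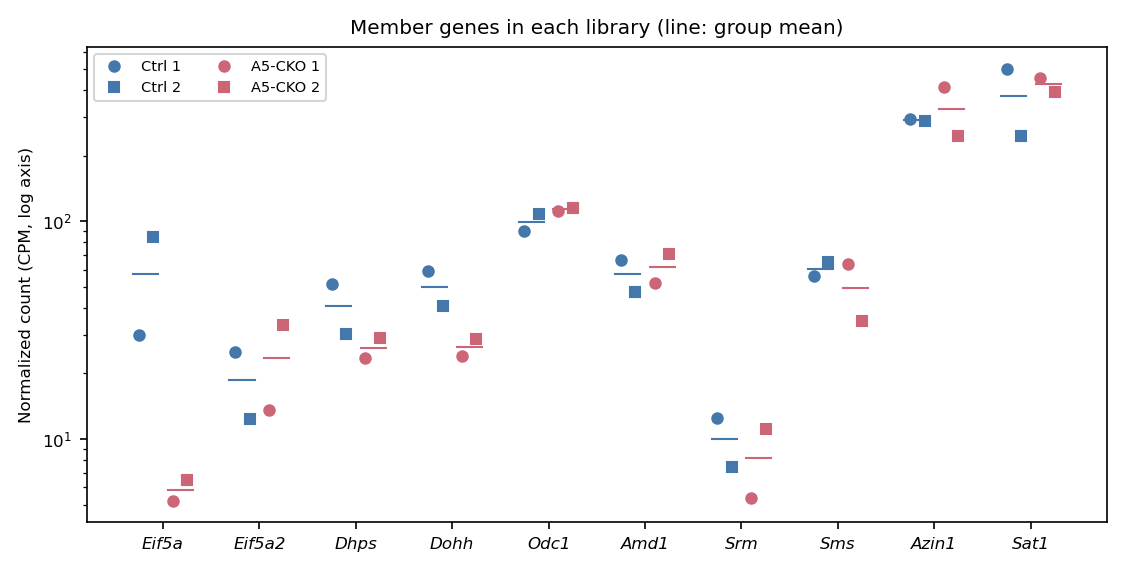
Normalized counts (CPM, log axis) of the 10 member genes in the 2 Ctrl libraries (blue) and the 2 A5-CKO libraries (red), with circles for replicate 1, squares for replicate 2 and a line at each group mean. Eif5a lay at 5.21 and 6.50 CPM in A5-CKO against 29.9 and 84.4 CPM in Ctrl, while the ranges of the 2 genotypes overlapped at 6 of the 10 genes.

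Eif5a, the common eIF5A gene, lies on the minus strand of chromosome 11 from 69916712 to 69921958 (GRCm38.p6), 9.36 Mb beyond the end of Alkbh5 on the same chromosome. Ctrl 1 held 506 counts of it and Ctrl 2 held 1451, against 115 for A5-CKO 1 and 152 for A5-CKO 2, which corresponded to 29.9, 84.4, 5.21 and 6.50 CPM. The Ctrl libraries were both higher, and they differed 2.82-fold from each other, more than the 1.25-fold between the A5-CKO libraries. The log2 fold change was -3.29, and it lay between -3.77 and -2.37 over all the settings tried. Without Ctrl 2, the library with the highest level, it was -2.37. These values chose the members and support nothing further. In bulk RNA, fewer cells of a type and less RNA per cell cannot be told apart, here and at every gene described.

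The counts of Eif5a stand in a stretch of chromosome 11 where few reads were counted in any library, an observation made after the values were seen. Of the 42 other protein-coding genes that start within 750 kb at higher coordinates, 37 (88.1%) had fewer than 100 counts in every library, and the median of their highest count was 4. Within 750 kb at lower coordinates this was so for 16 of 45 genes (35.6%), with a median highest count of 519, and among all 21845 protein-coding genes it was 46.5%. Genes that nearly every cell uses were among those without reads. Psmb6, a catalytic subunit gene of the proteasome, had 0 counts in all 4 libraries, and Gabarap, an autophagy gene, had 2 in each Ctrl library and 0 in each A5-CKO library. On the other side of Eif5a, Polr2a, the largest subunit of RNA polymerase II, had 3191, 8364, 5855 and 7025 counts, and Eif4a1, a translation initiation helicase, had 9251, 6319, 7509 and 10269. Acadvl, 93.5 kb from Eif5a within the low stretch, had 26 and 46 counts in Ctrl and 230 and 251 in A5-CKO, the opposite order to Eif5a. In the same stretch 0610010K14Rik had 150 and 68 counts in Ctrl, against 11 and 3 in A5-CKO, the same order as Eif5a. The cause of the low stretch is not given in the sources used here and was not tested. The Eif5a counts therefore may hold only part of the reads of its mRNA, and they are given as counts at this locus rather than as a level of the mRNA. Eif5a also overlaps Gps2 by 345 bases, and Gps2 had 79, 176, 45 and 122 counts. A pseudogene copy of Eif5a, Eif5al3-ps, matches it at 97.2% over 434 bases and has no row of its own. For Sat1 all 11 protein-coding genes at lower coordinates were under 100 counts too, with a median highest count of 0, so low counts of neighbours alone were not unique to Eif5a. Whether the neighbours of Sat1 are genes that AT2 cells use was not examined, so the stretches cannot be equated.

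**Figure D2:**
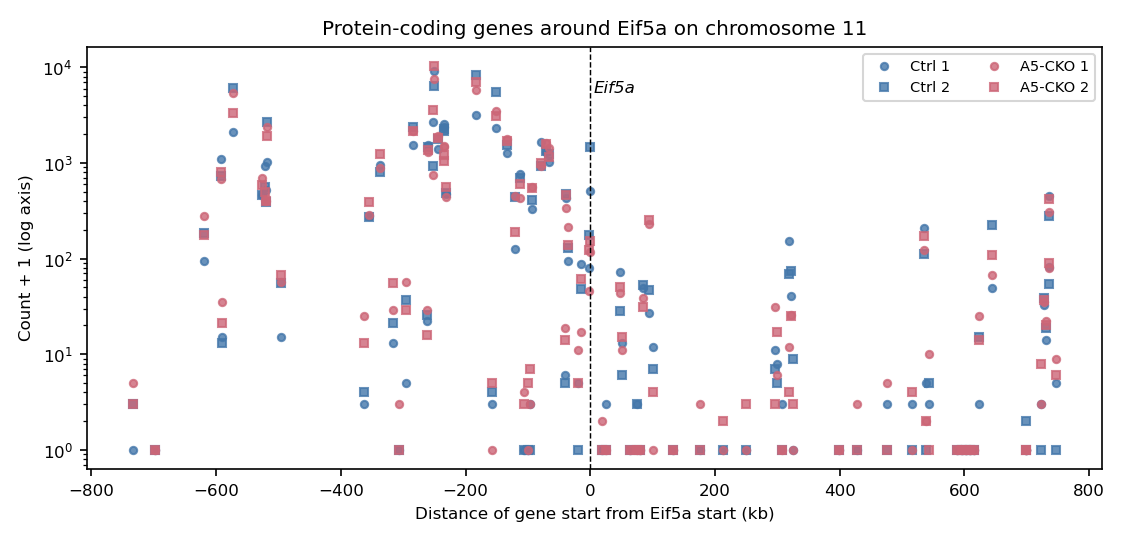
Counts plus 1 (log axis) of the protein-coding genes within 750 kb of Eif5a in each of the 4 libraries, against the distance of each gene's start from that of Eif5a in kb. At higher coordinates (right of the dashed line) 37 of 42 genes stayed under 100 counts in every library, against 16 of 45 to the left.

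The 5 tested genes whose profile over the 4 libraries was nearest that of Eif5a, by Euclidean distance of centred log2 CPM, were Tinagl1, Tmem28, Dgcr2, Tcte1 and Ttc29. Tinagl1 was the nearest at a distance of 0.856, with 21.3 and 30.9 CPM in Ctrl and 1.72 and 3.42 CPM in A5-CKO. Tmem28 followed at 0.943, with 39.0 and 74.8 CPM in Ctrl and 10.5 and 12.3 CPM in A5-CKO. Tcte1 and Ttc29 rested on at most 25 counts in any library. Alkbh5 itself ranked 6 among all genes outside the members, at a distance of 1.19. With 4 libraries of 2 groups, likeness of this kind mostly reflects the size and direction of the difference between genotypes.

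Eif5a2 encodes the paralog of eIF5A, which also carries hypusine and is normally the less abundant form. It had 25.1 and 12.4 CPM in Ctrl 1 and Ctrl 2 and 13.6 and 33.3 CPM in A5-CKO 1 and A5-CKO 2. The genotypes overlapped, with a log2 fold change of 0.32 ± 0.55 (SE) and an adjusted p of 0.857 in edgeR. Per kilobase of transcript, Eif5a2 was the lowest of the members, at a mean of 4.20 CPM per kb over the 4 libraries. The counts of Eif5a per kilobase exceeded those of Eif5a2 by 4.17-fold and 23.8-fold in the Ctrl libraries and by 1.34-fold in A5-CKO 1, and they stood at 0.683 of them in A5-CKO 2. This ratio inherits the limits of the Eif5a counts, and Eif5a2 overlaps the long non-coding genes 1700112D23Rik by 91 bases and Gm32950 by 8208 bases.

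Dhps, the gene of the first hypusine enzyme, lies on chromosome 8 from 85071486 to 85075162. It had 51.3 and 30.3 CPM in Ctrl 1 and Ctrl 2 and 23.5 and 29.1 CPM in A5-CKO 1 and A5-CKO 2. Both A5-CKO libraries were lower, but A5-CKO 2 was so close to Ctrl 2 that the genotypes overlapped under every scaling tried other than TMM. The group means were 40.8 ± 14.8 and 26.3 ± 3.97 CPM (SD, n = 2 each), the log2 fold change was -0.64 ± 0.38 (SE) and the adjusted p was 0.578 in edgeR. Without Ctrl 1 the log2 fold change shrank to -0.12. Dhps shares 128 bases with Wdr83, which had 432, 378, 564 and 488 counts.

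Dohh, the gene of the second hypusine enzyme, lies on chromosome 10 from 81384434 to 81388352. It had 59.2 and 40.7 CPM in Ctrl 1 and Ctrl 2 and 24.0 and 28.8 CPM in A5-CKO 1 and A5-CKO 2. The genotypes did not overlap, and the gap between the nearest libraries was wider than at Dhps. The means were 50.0 ± 13.1 CPM in Ctrl and 26.4 ± 3.34 CPM in A5-CKO (SD, n = 2 each), with a log2 fold change of -0.92 ± 0.34 (SE). The unadjusted p was 0.0306 and the adjusted p 0.528 in edgeR, so the difference did not pass the test over all genes. After a correction for GC content and transcript length the log2 fold change was -0.45, with an unadjusted p of 0.131. The Dohh transcript has the highest GC content of the members, at 62.5%. The gene lies wholly within the long non-coding gene Gm48551, whose counts of 661, 507, 340 and 436 had the same order of genotypes, and reads of the overlap cannot be assigned to either gene with certainty. Within a library, the counts per kilobase of Dohh relative to Dhps were 1.07 and 1.24 in Ctrl, against 0.946 and 0.914 in A5-CKO, so the enzymes' counts per kilobase were within 1.24-fold of each other in every library.

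Odc1, which encodes the enzyme that commits ornithine to polyamines, had 90.1 and 108 CPM in Ctrl and 111 and 116 CPM in A5-CKO. Both A5-CKO libraries lay above both Ctrl libraries, by a small margin. The means were 99.1 ± 12.8 and 113 ± 3.07 CPM (SD, n = 2 each), and the log2 fold change was 0.19 ± 0.28 (SE) with an adjusted p of 0.827 in edgeR. The counts of Odc1 can share reads with 8 near-identical copies elsewhere in the genome, at 95% identity or more over at least 100 bases. AW146154, the 1 of these with its own row, had 85, 48, 215 and 81 counts beside 1523, 1859, 2456 and 2703 for Odc1. By the same rule Amd1 had 5 such copies, Sms 3, Eif5a 2 and Sat1 2, so this limit is not particular to Odc1.

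Amd1 encodes the decarboxylase that supplies the aminopropyl groups. It had 66.6 and 47.5 CPM in Ctrl and 52.2 and 70.8 CPM in A5-CKO, with overlap and a log2 fold change of 0.11 ± 0.33 (SE, adjusted p = 0.920 in edgeR). Its copy Amd2 matches it at 99.6% over 3202 bases and had only 17 to 50 counts, so a split of reads between them is uncertain. Srm, the gene of spermidine synthase, had the lowest mean CPM of the members over the 4 libraries, with 12.5 and 7.45 CPM in Ctrl and 5.34 and 11.1 CPM in A5-CKO. Its log2 fold change of -0.28 ± 0.55 (SE, adjusted p = 0.875 in edgeR) was smaller than its error. Sms, which encodes spermine synthase and so draws spermidine away, had 56.2 and 64.6 CPM in Ctrl and 63.7 and 34.7 CPM in A5-CKO. Here A5-CKO 2 stood apart from the 3 other libraries, and the log2 fold change was -0.30 ± 0.37 (SE, adjusted p = 0.787 in edgeR). The counts per kilobase of Sms relative to Srm ran from 1.13 in A5-CKO 2 to 4.29 in A5-CKO 1, wider within A5-CKO than between the genotypes.

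Azin1, the gene of the antizyme inhibitor that shields ODC1, had 293 and 290 CPM in Ctrl and 411 and 246 CPM in A5-CKO. The A5-CKO libraries fell on either side of Ctrl, and the log2 fold change was 0.17 ± 0.36 (SE, adjusted p = 0.882 in edgeR). Sat1 encodes the acetyltransferase that starts polyamine breakdown and export. It had the highest mean CPM of the members, although Azin1 was above it in Ctrl 2, with 502 and 246 CPM in Ctrl and 455 and 393 CPM in A5-CKO, and a log2 fold change of 0.18 ± 0.42 (SE, adjusted p = 0.894 in edgeR). The Ctrl libraries differed 2.04-fold from each other and enclosed both A5-CKO libraries. Ordered by mean CPM per kilobase over the 4 libraries, Sat1 stood at 344, Azin1 at 63.6 and Odc1 at 48.1. Dohh followed at 26.5, Dhps at 25.2, Eif5a at 21.9, Amd1 at 18.5, Sms at 14.7, Srm at 6.79 and Eif5a2 at 4.20. This is the order of the means only. Of the 9 pairs of neighbours in it, 7 had ranges over the libraries that overlapped, and the 2 that did not were Sat1 with Azin1 and, by a narrow margin, Sms with Srm. Eif5a ranged from 3.62 to 58.8 CPM per kb.

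**Figure D3:**
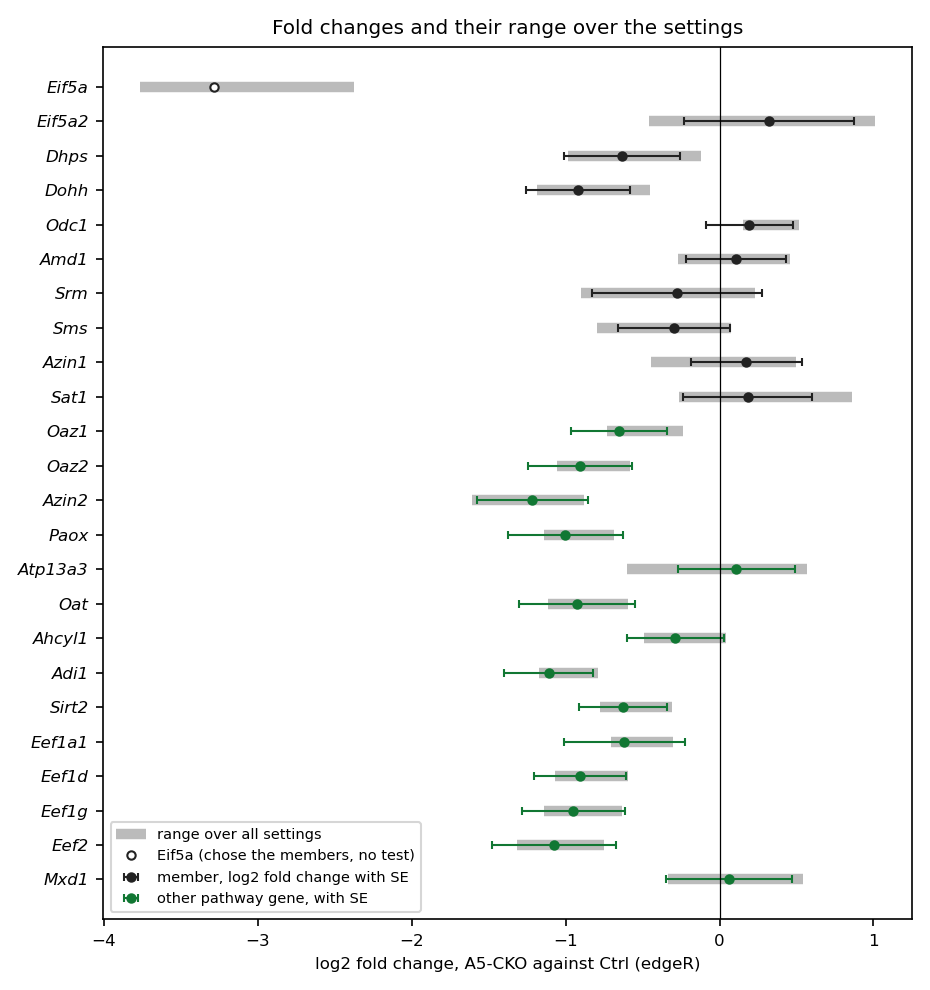
Log2 fold changes of A5-CKO against Ctrl from edgeR for the members (black) and named genes of the other pathway lists (green) with standard errors, over grey bars that span all 16 settings. The bars of Dhps and Dohh stay below 0 and that of Odc1 above 0, while those of Eif5a2, Amd1, Srm, Sms, Azin1 and Sat1 cross 0.

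A pattern that crossed the genotypes was seen at several members. Eif5a2, Dhps, Dohh, Amd1 and Srm (5 of 10) were higher in Ctrl 1 than in Ctrl 2 and higher in A5-CKO 2 than in A5-CKO 1, an order held by 27.1% of all genes tested. Some of the marker lists had it as well, namely 8 of 12 leukocyte, 7 of 8 mesenchymal, 6 of 8 proliferation and 6 of 8 tested AT1 and transitional markers. The reverse order was held by 7 of 10 AT2 markers, beside 30.0% of all genes tested. The 12 leukocyte markers summed to 986 and 379 CPM in Ctrl 1 and Ctrl 2 and to 333 and 1244 CPM in A5-CKO 1 and A5-CKO 2, and none of the 12 was at 0 in any library. The 8 mesenchymal markers summed to 426, 156, 98.8 and 1105 CPM in the same order, also with none at 0. The endothelial sums (134, 212, 95.7 and 210 CPM) and airway sums (2886, 2797, 2013 and 1280 CPM) did not have this order. Of the endothelial markers Cldn5 was at 0 in all 4 libraries, and the cause was not tested. The 5 tested endothelial markers had counts in every library, with 530, 827, 657 and 1174 for Pecam1. Of the genes around the pathway, Arg1, which makes ornithine and is abundant in some macrophages, had 78.7, 16.9, 20.0 and 96.8 CPM, and Myc, a known activator of Odc1, had 20.3, 7.21, 19.3 and 29.6 CPM. Arg1 and Myc were chosen after their values were seen. The part of such cells in the members' values was not tested.

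The genes around the members were described from 7 further lists of 69 genes, 59 of them tested. None passed an adjusted p under 0.05 in edgeR, limma voom or DESeq2 with default filtering, and 9 of 59 had an unadjusted p under 0.05 in edgeR, beside 9.18% of all genes. Levels in A5-CKO were without overlap lower than Ctrl at 24 of the 59 (beside 23.5% of all genes) and higher at 5 (beside 20.3%). The median log2 fold change was -0.43, beside -0.02 for all genes tested. With total counts as the only scaling it was -0.09, beside 0.30 for all genes tested. The 10 AT2 markers were lower as well, with a median log2 fold change of -0.86. Of these 10, 7 were lower in both A5-CKO libraries (beside 23.5% of all genes). The part of the AT2 markers in the pathway values was not tested.

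The antizyme genes Oaz1 and Oaz2 and the second antizyme inhibitor gene stood lower in A5-CKO without overlap, while Oaz3 had 0 to 4 counts and was not tested. Oaz1, the main antizyme gene, had 489 and 450 CPM in Ctrl and 294 and 303 CPM in A5-CKO, with a log2 fold change of -0.65 ± 0.31 (SE, adjusted p = 0.534 in edgeR). Oaz2 had 418 and 557 CPM in Ctrl and 285 and 235 CPM in A5-CKO, with a log2 fold change of -0.91 ± 0.34 (SE, unadjusted p = 0.0326 and adjusted p = 0.528 in edgeR). Azin2, an antizyme inhibitor with its own expression pattern, had 59.2 and 79.7 CPM in Ctrl and 37.0 and 22.8 CPM in A5-CKO. Its log2 fold change of -1.22 ± 0.36 (SE) had an unadjusted p of 0.0123 and an adjusted p of 0.528 in edgeR. Of this list of 5 genes 4 were tested, 3 were lower in both A5-CKO libraries (beside 23.5% of all genes), and the median log2 fold change was -0.78 against -0.02 for all genes. With GC content and length corrected for, the log2 fold change was -0.24 for Oaz1, -0.68 for Oaz2 and -0.88 for Azin2.

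Ratios taken within a library do not depend on the scaling between libraries, and those given here were chosen after the values were seen, so they are a description with no test. The counts per kilobase of Odc1 relative to Oaz1 plus Oaz2 were 0.0597 and 0.0678 in Ctrl, against 0.117 and 0.127 in A5-CKO. Those of Azin1 relative to Azin2 were 2.10 and 1.54 in Ctrl, against 4.70 and 4.58 in A5-CKO. Both ratios were higher in both A5-CKO libraries, and so was that of Odc1 to the elongation factor gene Eef2. Odc1 relative to Eef2 was 0.031 and 0.033 in Ctrl, against 0.089 and 0.068 in A5-CKO. A higher ratio of Odc1 was therefore not particular to the antizyme genes. With GC content and length corrected for, the log2 fold change of Azin1 minus that of Azin2 went from 1.39 to 0.45, that of Odc1 minus Oaz1 from 0.85 to 0.59 and that of Odc1 minus Oaz2 from 1.10 to 1.03. These are ratios of RNA. Antizyme protein depends on a ribosomal frameshift that polyamines promote, which these counts do not measure.

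**Figure D4:**
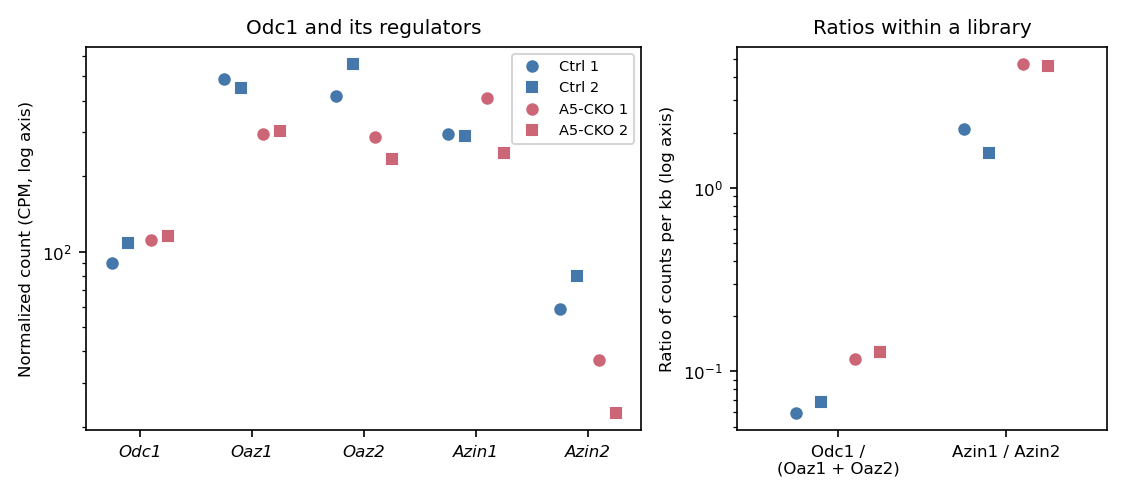
Left, normalized counts (CPM, log axis) of Odc1, the antizyme genes Oaz1 and Oaz2 and the antizyme inhibitor genes Azin1 and Azin2 in each library (blue Ctrl, red A5-CKO, circles replicate 1, squares replicate 2). Right, ratios of counts per kilobase within each library (log axis), where Odc1 to Oaz1 plus Oaz2 was 0.0597 and 0.0678 in Ctrl, against 0.117 and 0.127 in A5-CKO.

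Of 15 genes of polyamine catabolism and transport 10 were tested, with a median log2 fold change of -0.30. Of these 10, 3 were lower in both A5-CKO libraries (beside 23.5% of all genes). Paox, which oxidizes acetylated polyamines, had 21.8 and 20.6 CPM in Ctrl and 9.73 and 11.4 CPM in A5-CKO, and its log2 fold change was -1.00 ± 0.37 (SE, unadjusted p = 0.0324 and adjusted p = 0.528 in edgeR). The most abundant gene of the list, Atp13a3, a polyamine transporter of the endosome, overlapped between genotypes at 226 and 405 CPM in Ctrl and 335 and 345 CPM in A5-CKO (log2 fold change 0.11 ± 0.38, SE). Of 8 genes of ornithine supply 6 were tested, and 4 lay lower in both A5-CKO libraries (beside 23.5% of all genes). Oat, the aminotransferase between ornithine and glutamate semialdehyde, had 680 and 1029 CPM in Ctrl and 497 and 402 CPM in A5-CKO (log2 fold change -0.93 ± 0.37, SE, unadjusted p = 0.0433 and adjusted p = 0.528 in edgeR).

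The methionine cycle feeds AMD1, and the salvage route recovers the methylthioadenosine that SRM and SMS release. Of these 14 genes 12 were tested, with a median log2 fold change of -0.21. In both A5-CKO libraries 3 were lower (beside 23.5% of all genes) and 1 higher (beside 20.3%). Adi1, a dioxygenase of the salvage route, had 128 and 158 CPM in Ctrl and 64.2 and 68.4 CPM in A5-CKO. Its log2 fold change of -1.11 ± 0.29 (SE) had the smallest unadjusted p of the 59 genes, 0.00682, and an adjusted p of 0.528 in edgeR. After the correction for GC content and length it was -1.15. The most abundant gene of the list, Ahcyl1, related to the hydrolase of S-adenosylhomocysteine, overlapped at 126 and 180 CPM in Ctrl and 124 and 128 CPM in A5-CKO.

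The 4 genes of eIF5A transport and acetylation had a median log2 fold change of 0.04. Sirt2, a deacetylase that can act on eIF5A, had 120 and 117 CPM in Ctrl and 69.0 and 83.8 CPM in A5-CKO, without overlap (log2 fold change -0.63 ± 0.29, SE, adjusted p = 0.528 in edgeR). Of the 13 other elongation, initiation and termination factors, all tested, 5 were lower (beside 23.5% of all genes) and 3 higher (beside 20.3%) in both A5-CKO libraries. The translocase gene Eef2 had 4127 and 4602 CPM in Ctrl and 1753 and 2394 CPM in A5-CKO (log2 fold change -1.07 ± 0.40, SE, unadjusted p = 0.0325 and adjusted p = 0.528 in edgeR). Eef1g and Eef1d, subunits of the exchange factor of eEF1A, had log2 fold changes of -0.95 ± 0.33 and -0.91 ± 0.30 (SE), with unadjusted p of 0.0253 and 0.0190 and an adjusted p of 0.528 each in edgeR. Eef1a1, which brings the aminoacyl-tRNA and was the most abundant of the list, had 5233 and 5031 CPM in Ctrl and 3145 and 3539 CPM in A5-CKO (log2 fold change -0.62 ± 0.39, SE, adjusted p = 0.594 in edgeR). Per kilobase, Dohh relative to Eef2 overlapped between genotypes, at 0.0307 and 0.0189 in Ctrl, against 0.0293 and 0.0257 in A5-CKO, unlike the CPM of Dohh, and this ratio was chosen after its values were seen. The 10 genes of the Myc family had a median log2 fold change of -0.43, with 5 lower in both A5-CKO libraries (beside 23.5% of all genes). None of them had an unadjusted p under 0.05 in edgeR (beside 9.18% of all genes). Mxd1, an antagonist of MYC and the most abundant of them, overlapped at 71.8 and 131 CPM in Ctrl and 80.4 and 132 CPM in A5-CKO.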

How the data were processed

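The authors deposited whole read counts per gene for 4 libraries, without normalization. Per the submitters' processing notes and the study's methods, reads were trimmed (Trim Galore 0.6.10), cleared of ribosomal RNA, aligned to mm10 with patches (HISAT2 2.2.1), stripped of duplicates and counted (featureCounts 2.0.3). The methods describe the counting under another assay, and the strand setting is not given in the sources used here, so overlapping genes are uncertain. Removing duplicates can flatten abundant transcripts. Columns named WT and KO were taken as Ctrl and A5-CKO from the genotype labels, and 0 columns were left out.

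Counts were fitted in R 4.3.3 with edgeR 4.0.16 (TMM, filterByExpr, quasi-likelihood test), genotype as the term, over all 16661 genes tested, with Benjamini-Hochberg adjustment and a threshold of 0.05. The common dispersion was 0.173. Standard errors are the log2 fold change over the square root of F. CPM use TMM-scaled library sizes, and levels between genes were divided by the length of the longest GENCODE M21 transcript. Libraries held 18144865 to 20811757 counts. DESeq2 1.42.0, limma 3.58.1 voom, other scalings and filters, a spline correction (4 degrees of freedom) for GC content and length, the replicate number as a block and each library left out were alternatives. The scripts were tested on simulated data. The members, lists and motifs were chosen with earlier results of these data known. Named were all members, listed genes with an unadjusted p under 0.05 or without overlap and an absolute log2 fold change of at least 1, the most abundant gene of each list, the 5 genes nearest to Eif5a, and Alkbh5. A listed gene that met this rule is not reported here. Any further gene was picked with its values known. Coordinates and sequences are from RefSeq on GRCm38.p6.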

Additional observations from a re-analysis of the deposited data

How the results depend on the processing

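None of the 9 members other than Eif5a and none of the 69 other pathway genes passed an adjusted p under 0.05 under any of the 15 alternatives, including each library left out (range 0 to 0) and the replicate block (0). Leaving out a library leaves 1 in its group, which is then assumed to vary like the rest. Members with an unadjusted p under 0.05 numbered 1 as reported, 0 with upper-quartile factors, total counts only, the replicate block and the correction for GC content and length with or without the block, and 0 to 2 with a library left out. Other pathway genes numbered 9 as reported, 4 with the block, 1 with the block and the correction, and 1 to 10 with a library left out (1 without A5-CKO 1, 3 without A5-CKO 2). Members higher in both A5-CKO libraries numbered 1 as reported, beside 20.3% of all genes. They numbered 2 with total counts only and 1 to 4 with a library left out. Members lower numbered 3 with TMM, beside 23.5% of all genes, and 2 with RLE or upper-quartile factors or total counts only. Eif5a, whose values chose the members, was 1 of them under each scaling. With a library left out, an alternative chosen after seeing the data, they numbered 4 to 5. Leaving out a library makes a lack of overlap easier for any gene. The shares of all genes under these alternatives are not given here, so these counts show nothing particular to the members. The block rests on numbers only: the labels do not tie same-numbered libraries, and their deviations from the group means correlated at -0.35.

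Reversals concerned genes whose log2 fold change was within its error. Under GC content and length correction, without and then with the replicate block, Eif5a2 was at -0.18 and -0.33, Amd1 at -0.24 and -0.27, Srm at 0.18 and 0.11, Azin1 at -0.43 and -0.44, Atp13a3 at -0.60 and -0.51, and Mxd1 at -0.021 and -0.025. With total counts only Srm was at 0.028, Sms at 0.022 and Ahcyl1 at 0.041. With each library left out in turn, Eif5a2 ranged from -0.46 (without A5-CKO 2) to 1.01, Amd1 from -0.13 (without Ctrl 2) to 0.46, Srm from -0.90 to 0.23 (without Ctrl 1) and Sms from -0.80 to 0.077 (without A5-CKO 2). Azin1 ranged from -0.24 (without A5-CKO 1) to 0.50, Sat1 from -0.27 (without Ctrl 2) to 0.86, Atp13a3 from -0.17 (without Ctrl 1) to 0.57 and Mxd1 from -0.34 (without A5-CKO 2) to 0.54. The causes were not tested. Srm, with 118 to 259 counts, had the least depth of the tested members.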

Other observations

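Among the marker lists, 8 of 8 proliferation markers had a log2 fold change above 0, with a median of 0.68 beside -0.02 for all genes tested. Those of Pcna (0.018) and Mcm2 (0.031) were close to 0, and 1 of the 8 genes lay higher in both A5-CKO libraries. The sums of the 8 were 204 and 157 CPM in Ctrl 1 and Ctrl 2 and 164 and 292 CPM in A5-CKO 1 and A5-CKO 2. A5-CKO 1 thus lay between the Ctrl libraries. The 10 AT1 and transitional markers, 8 of them tested, had a median of 0.45, with 2 higher and 1 lower in both A5-CKO libraries. Pdpn, which was not tested, had a separate row on a genome patch with 41 and 18 counts in Ctrl and 73 and 52 in A5-CKO. Airway markers (7 tested) had a median of -0.64, endothelial markers (5 tested) -0.01, leukocyte markers (12 tested) -0.16 and mesenchymal markers (8 tested) 1.03. All 8 mesenchymal markers overlapped between genotypes, and A5-CKO 1 had their lowest sum (98.8 CPM) and A5-CKO 2 their highest (1105 CPM). The 3 nuclear long non-coding RNAs had a median of 1.87, and all 3 were higher in both A5-CKO libraries. None of these lists held a gene with an adjusted p under 0.05 in edgeR or limma voom. DESeq2 with default filtering called 1 of the 3 nuclear RNAs (beside 0.328% of all genes). In edgeR, an unadjusted p under 0.05 was found at 2 of 10 AT2, 1 of 12 leukocyte and 2 of 7 airway genes. The same held for 1 of 8 proliferation and 3 of 3 nuclear RNA genes. Over all genes tested, 9.18% had such a p, while 20.3% were higher and 23.5% lower in both A5-CKO libraries.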
